A study of Arabidopsis thaliana with 9 samples.

Results

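The genes described here are 10 loci of anthocyanin synthesis in Arabidopsis thaliana, chosen by locus from a table of 33602: 7 that make, decorate or carry the pigment (DFR, LDOX, UGT78D2, UGT75C1, UF3GT, AT5MAT and GSTF12) and 3 regulators (MYB75, MYB90 and TT8). Their transcripts were counted by RNA sequencing in whole seedlings, 6 days after transfer to 20 °C, from the wild-type accession Col-0 and from 2 lines in its background with mutations in EMB1579, a gene also called RSA1. The lines are emb1579-1 and emb1579-3, with 3 libraries for each genotype, and the series asked what EMB1579 does for gene expression in root growth. What was changed in EMB1579 is stated for neither line, and seeds of all groups were stratified for 3 days and grown on diluted Murashige and Skoog medium, with no other treatment named. The results rest on 8 libraries of 24.1 to 37.5 M counts, since Col-0 replicate 3, with 1.2 M counts, was left out. Chloroplast and mitochondrial genome loci held 45.8% to 49.6% of the counts in these 8 libraries. Levels given below are scaled to totals that include them.

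Anthocyanins are red to purple flavonoid pigments that seedlings store in the vacuole, mostly in the upper hypocotyl and cotyledons, and they are known to build up under strong light, sugar, cold and shortage of nutrients. The pathway shares its early steps with the colourless flavonols. Its late steps are switched on by a complex of a MYB, a bHLH and a WD40 protein, called MBW here, in which MYB75 or MYB90 binds TT8 or a related bHLH protein and TTG1. Proteins such as MYBL2 and the small MYB protein CPC weaken this complex.

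In emb1579-3, 8 of the 10 genes were called higher than in Col-0, as were 9.95% of the 20668 tested genes, and UGT78D2 and MYB90 were not called. A gene is called where its p, adjusted over all tested genes, was under 0.05. The rise went from 3.29-fold for UGT75C1 to 8.09-fold for DFR. For libraries labelled emb1579-1, 4 of the 10 were called higher, by at most 2.44-fold, against 8.27% of tested genes. Set directly against those libraries, emb1579-3 had 7 of the 10 higher, against 0.416%. Of 9 tested repressors of anthocyanin synthesis 5 fell in emb1579-3, where 10.3% of tested genes were called lower.

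EMB1579 itself was at 48.6 and 48.9 CPM in the Col-0 libraries, at 46.8 to 48.9 for libraries labelled emb1579-1 and at 1.08 to 2.11 in emb1579-3, so by its transcript the first line cannot be told from Col-0. CPM are counts scaled to 1 M of the library total after TMM, a normalization factor per library. The count columns of emb1579-3 are named with a different line number from the one in the labels. They were assigned by elimination, and could belong to a line the labels do not describe. Over nuclear loci, log2 levels of Col-0 replicate 3 on nuclear totals correlated with those of any other library by at most 0.315. The 4 shoot markers, led by the photosynthesis genes RBCS1A and LHCB1.2, summed to 7892 and 8687 CPM in Col-0, 7332 to 8373 for libraries labelled emb1579-1 and 7779 to 8561 in emb1579-3. PSAF, a photosystem gene, was called lower in both lines and LHCB1.1 higher in emb1579-3, the latter not without Col-0 replicate 2 (0.37) or emb1579-3 replicate 2 (0.35). The 4 root markers summed to 1156 and 1396, 626 to 811 and 541 to 751 CPM, and PYK10 and CASP1 were called lower in both lines. PYK10 alone made up 1384 and 1145 CPM of the sums in Col-0. The other root markers were not called: NRT2.1 was at 0.73 and 0.75 and COBL9 at -0.1 and 0.07 on the log2 scale. The 4 seed storage markers summed to at most 0.939 CPM in any library. In whole seedlings, fewer cells of a type and less RNA per cell cannot be told apart, and the part that tissue composition has in the results was not tested.

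The upstream sequences of 5 members are shown: DFR and LDOX had the highest fold changes against Col-0 and UF3GT the highest between the lines, and MYB75 and MYB90 are the related pair of activators. Each is the 300 bases before the annotated start in RefSeq TAIR10.1, read on the strand of the gene, 5′ to 3′. Capitals mark the G-box CACGTG, a site type that bHLH proteins can bind, and ACCNAAC, a letter pattern related to sites of plant MYB proteins, each on either strand.
DFR (chr5:17166033-17166332, minus strand): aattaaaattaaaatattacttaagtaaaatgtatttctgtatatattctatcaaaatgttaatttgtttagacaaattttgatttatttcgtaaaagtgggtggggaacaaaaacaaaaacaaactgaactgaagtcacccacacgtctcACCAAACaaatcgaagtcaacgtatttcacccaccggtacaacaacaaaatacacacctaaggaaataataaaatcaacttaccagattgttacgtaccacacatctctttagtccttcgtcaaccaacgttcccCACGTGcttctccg
LDOX (chr4:12006210-12006509, minus strand): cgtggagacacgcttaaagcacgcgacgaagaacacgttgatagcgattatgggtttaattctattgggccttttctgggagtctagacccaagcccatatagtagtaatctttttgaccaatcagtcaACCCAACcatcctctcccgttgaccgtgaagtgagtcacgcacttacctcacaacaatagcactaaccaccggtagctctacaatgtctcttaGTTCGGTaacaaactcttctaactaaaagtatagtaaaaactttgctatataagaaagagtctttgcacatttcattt
UF3GT (chr5:21938397-21938696, minus strand): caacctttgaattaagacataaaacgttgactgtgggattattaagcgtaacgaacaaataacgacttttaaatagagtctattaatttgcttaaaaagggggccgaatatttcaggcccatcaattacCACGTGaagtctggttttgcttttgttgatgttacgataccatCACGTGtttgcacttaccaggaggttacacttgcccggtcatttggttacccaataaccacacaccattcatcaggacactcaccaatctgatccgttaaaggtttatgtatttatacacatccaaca
MYB75 (chr1:21235293-21235592, minus strand): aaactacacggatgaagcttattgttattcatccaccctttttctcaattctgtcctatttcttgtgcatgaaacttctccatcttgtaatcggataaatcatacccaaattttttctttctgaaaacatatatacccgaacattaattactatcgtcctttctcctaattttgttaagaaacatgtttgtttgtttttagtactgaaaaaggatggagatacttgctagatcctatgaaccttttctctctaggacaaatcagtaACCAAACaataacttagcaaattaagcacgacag
MYB90 (chr1:24763641-24763940, plus strand): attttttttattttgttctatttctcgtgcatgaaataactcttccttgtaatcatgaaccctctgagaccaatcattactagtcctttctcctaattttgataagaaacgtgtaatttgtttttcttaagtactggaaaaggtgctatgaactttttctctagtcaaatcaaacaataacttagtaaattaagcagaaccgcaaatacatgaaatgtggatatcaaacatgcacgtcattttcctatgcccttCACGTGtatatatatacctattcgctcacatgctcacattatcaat
The DFR sequence held 1 G-box, 14 bases before the start, and 1 ACCNAAC match. The UF3GT sequence held 2 G-boxes and the LDOX sequence 2 ACCNAAC matches. Upstream of MYB75 lay an ACCNAAC match, and upstream of MYB90 a G-box. Of the 10 members, 3 held CACGTG in this window, against 7.09% of 27443 protein-coding genes, and 5 held ACCNAAC, against 16.8%. The looser E-box CANNTG, which includes CACGTG, was found in 6 of 10 members and in 61.9% of all genes. These matches are letters in a window and do not show binding. The windows of MYB75 and MYB90 aligned over 199 bases with 84.9% identity.

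The regulators are described first. MYB75 (AT1G56650, chr1:21233555-21235292), also known as PAP1, encodes the MYB activator best known for turning seedlings purple when overexpressed. It was at 0.417 and 0.698 CPM in Col-0, at 1.85, 0.856 and 1.24 CPM for libraries labelled emb1579-1 and at 3.87, 2.74 and 3.09 CPM in emb1579-3. The 3 groups did not overlap, with every library of emb1579-3 above every other. Its edgeR log2 fold change over Col-0 came to 1.2 (SE 0.35, adjusted p = 0.0233) for libraries labelled emb1579-1 and 2.51 (SE 0.32, adjusted p = 2.91e-05) in emb1579-3. The 2 lines differed by 1.31 (SE 0.26, adjusted p = 0.0186).

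TT8 (AT4G09820, chr4:6181881-6186523) encodes the bHLH partner, which also acts in the seed coat. Its level was 0.225 and 0.751 CPM in Col-0, 1.41, 1.03 and 1.28 for libraries labelled emb1579-1 and 1.69, 1.7 and 2.52 in emb1579-3. Both lines lay above Col-0, and emb1579-3 above the libraries labelled emb1579-1. It rose by 1.29 (SE 0.40, adjusted p = 0.0296) in the latter and by 1.97 (SE 0.38, adjusted p = 0.00124) in emb1579-3. The difference between the lines, 0.68 (SE 0.30), missed the test (adjusted p = 0.485). TT8 passed the filter on low counts, which stood at 0.357 CPM, through 1 Col-0 library and all 6 mutant libraries, so its Col-0 level and the size of its rise are uncertain.

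MYB90 (AT1G66390, chr1:24763941-24765541), also known as PAP2, lies in a cluster with MYB113 and MYB114 that spans 12 kb. Its counts were 0 and 2 in Col-0, 5, 3 and 1 for libraries labelled emb1579-1 and 5, 5 and 1 in emb1579-3. It did not pass the filter and was not tested, and at this depth a difference between the groups was not detectable. MYB113 and MYB114 were at 0 to 7 and 0 to 4 counts per library. Their transcripts are close copies, with runs of up to 77 identical bases between MYB90 and MYB114 and of 42 between MYB75 and MYB90, so reads may have been shared or lost among them.

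DFR and LDOX, the enzyme genes that commit the pathway to anthocyanin, had the highest fold changes of the members in emb1579-3 against Col-0. DFR (AT5G42800, chr5:17164093-17166032) encodes dihydroflavonol reductase, the first enzyme of the branch. Its level was 1.22 and 3.17 CPM in Col-0, 4.19, 3.14 and 4.32 for libraries labelled emb1579-1 and 20.8, 15.4 and 18.4 in emb1579-3. The emb1579-3 libraries stood far above the rest, while the libraries labelled emb1579-1 overlapped Col-0. DFR rose by 3.02 on the log2 scale in emb1579-3 (SE 0.33, adjusted p = 5.96e-04). For libraries labelled emb1579-1 its change was 0.78 (SE 0.36, adjusted p = 0.194), with 2.23 (SE 0.27, adjusted p = 0.0126) between the lines. Among 20668 tested genes, DFR ranked 25 by fold change in emb1579-3 against Col-0, and LDOX ranked 26.

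LDOX (AT4G22880, chr4:12004726-12006209) encodes the dioxygenase that makes the coloured anthocyanidin from what DFR supplies. It was at 1.7 and 3.19 CPM in Col-0, at 6.37, 3.82 and 5.06 for libraries labelled emb1579-1 and at 20.3, 17.1 and 21.6 in emb1579-3. The 3 groups did not overlap. LDOX rose by 1.02 (SE 0.28, adjusted p = 0.0295) and by 2.98 (SE 0.26, adjusted p = 3.76e-05), with 1.96 (SE 0.21, adjusted p = 0.00207) between the lines.

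**Figure D1:**
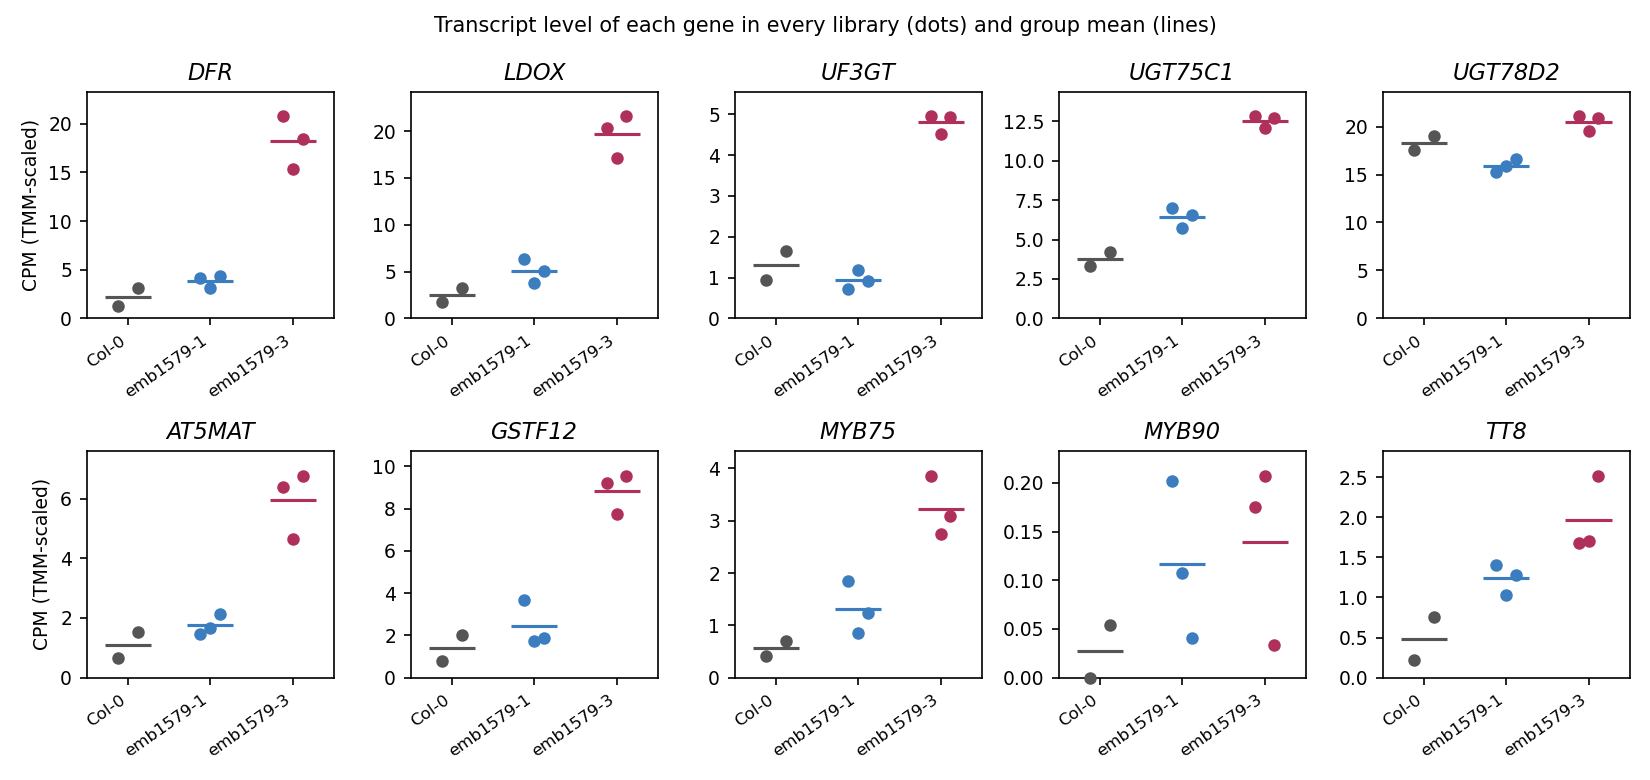
Level of each of the 10 genes in CPM on TMM-scaled totals (y axis, linear, from 0, own scale per gene), with 1 dot per library and a line at the mean of Col-0 (2 libraries), emb1579-1 (3) and emb1579-3 (3). In 9 of the 10 panels every emb1579-3 library lies above every Col-0 library, as for 24.2% of tested genes, and MYB90 reaches at most 0.208 CPM.

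The sugar transferases split. UGT78D2 (AT5G17050, chr5:5607788-5609589) encodes the enzyme that adds the first glucose, and it acts on flavonols as well as on anthocyanidins. It was the steadiest member, at 17.6 and 19 CPM in Col-0, 15.3, 15.8 and 16.6 for libraries labelled emb1579-1 and 21.1, 19.6 and 20.9 in emb1579-3. The 3 groups did not overlap, but the changes against Col-0 of -0.2 (SE 0.09, adjusted p = 0.144) and 0.17 (SE 0.09, adjusted p = 0.223) did not pass the test. The difference between the lines, 0.37 (SE 0.08, adjusted p = 0.0429), passed, and leaving out any of the 6 mutant libraries gave adjusted p = 0.0619 to 0.176 with values of 0.34 to 0.4.

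UF3GT (AT5G54060, chr5:21936746-21938396) encodes the enzyme that adds xylose to that glucose. It was at 0.931 and 1.66 CPM in Col-0, at 0.726, 1.18 and 0.906 for libraries labelled emb1579-1 and at 4.95, 4.53 and 4.95 in emb1579-3. Only emb1579-3 stood apart. UF3GT rose there by 1.87 (SE 0.24, adjusted p = 2.31e-05), its value for libraries labelled emb1579-1 was -0.48 (SE 0.28, adjusted p = 0.268), and the difference between the lines was 2.35 (SE 0.23, adjusted p = 1.43e-05). It had the highest fold change between the lines of the 9 tested members.

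UGT75C1 (AT4G14090, chr4:8122188-8123835) encodes the enzyme that adds a glucose at another position of the ring. It was at 3.34 and 4.24 CPM in Col-0, at 7.01, 5.71 and 6.59 for libraries labelled emb1579-1 and at 12.8, 12.1 and 12.7 in emb1579-3, in 3 steps without overlap. It rose by 0.75 (SE 0.14, adjusted p = 0.00115) and by 1.72 (SE 0.14, adjusted p = 1.49e-07), with 0.96 (SE 0.12, adjusted p = 1.50e-04) between the lines. Its end shares 230 bases with AT4G14100 on the other strand, so its level is uncertain. AT4G14100 was at 5.81 to 8.22 CPM and was called lower, by -0.43 (SE 0.12), in emb1579-3.

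AT5MAT and GSTF12 act at the end of the pathway. AT5MAT (AT3G29590, chr3:11398592-11400332) encodes the enzyme that attaches malonate to the finished glucoside. It was at 0.642 and 1.53 CPM in Col-0, at 1.45, 1.68 and 2.14 for libraries labelled emb1579-1 and at 6.39, 4.65 and 6.77 in emb1579-3. It rose by 2.42 in emb1579-3 (SE 0.29, adjusted p = 3.55e-05), which stood above both other groups, and differed by 1.76 between the lines (SE 0.24, adjusted p = 0.00186). For libraries labelled emb1579-1, which overlapped Col-0, its change was 0.66 (SE 0.32, adjusted p = 0.181).

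GSTF12 (AT5G17220, chr5:5658416-5659661), known as TT19, encodes a glutathione transferase family protein needed to bring anthocyanins to the vacuole. It lies 48.8 kb from UGT78D2, which moved little. GSTF12 was at 0.77 and 2.04 CPM in Col-0, at 3.67, 1.75 and 1.85 for libraries labelled emb1579-1 and at 9.21, 7.76 and 9.56 in emb1579-3. It rose by 2.62 in emb1579-3 (SE 0.41, adjusted p = 0.00345), with every library above all others, while its change for libraries labelled emb1579-1, which overlapped Col-0, was 0.74 (SE 0.45, adjusted p = 0.325). The difference between the lines, 1.88 (SE 0.34), missed the test at an adjusted p of 0.0687 and passed it without emb1579-1 replicate 1, the highest of its group (2.3, adjusted p = 4.04e-04), and without either Col-0 library (1.88, adjusted p = 0.00124 and 0.00142). It shares 108 bases with PSY on the other strand, which was at 130 to 155 CPM and was not called in any comparison.

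**Figure D2:**
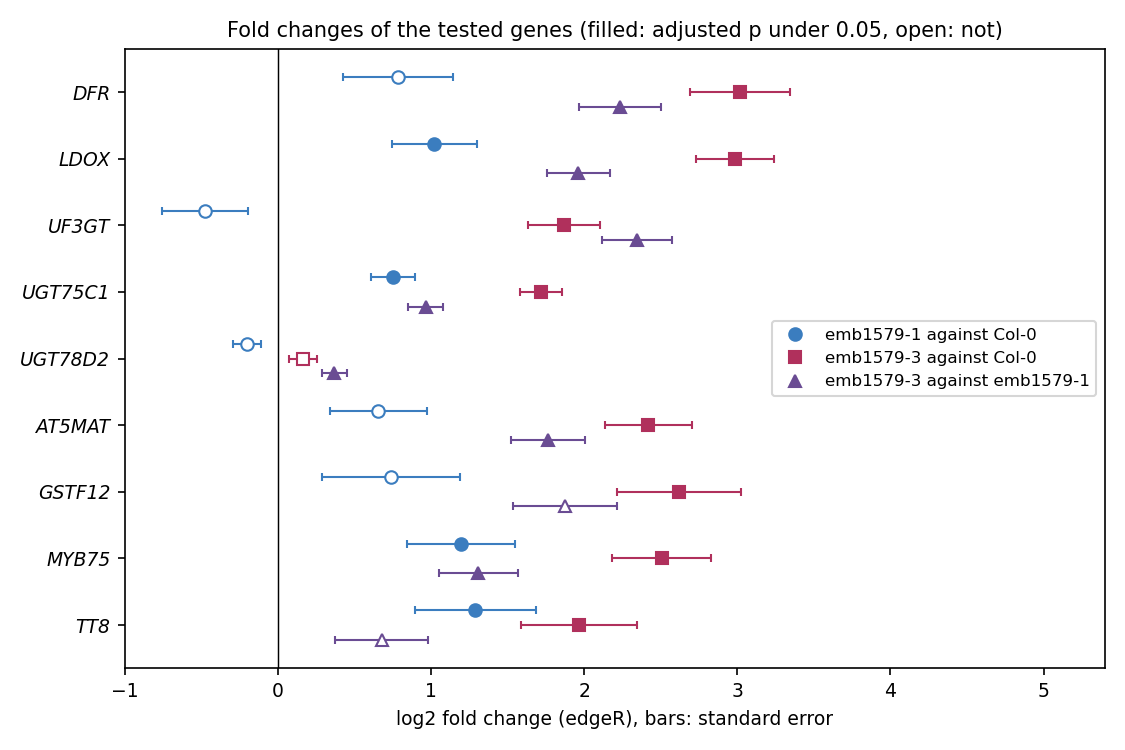
The edgeR log2 fold change (x axis) with its standard error for the 9 tested genes in the comparisons of each mutant line with Col-0 and of the lines with each other, filled where the adjusted p was under 0.05. The squares of emb1579-3 against Col-0 reach from 0.17 for UGT78D2 to 3.02 for DFR, and the circles of emb1579-1 against Col-0 from -0.48 to 1.29.

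In either direction 17.8% of tested genes were called in the comparison of libraries labelled emb1579-1 with Col-0, 20.3% in that of emb1579-3 with Col-0, and 0.818% between the lines. Against Col-0, libraries labelled emb1579-1 did not overlap for 5 members, of which LDOX, UGT75C1, MYB75 and TT8 were higher, like 21.8% of tested genes, and UGT78D2 was lower, like 22.9%. Groups that did not overlap, with the mutant line higher, were seen for 9 members in emb1579-3 against Col-0 and for 9 between the lines, where 24.2% and 7.43% of tested genes showed this. The median log2 fold change of the 9 tested members was 0.75, 2.42 and 1.76 in the 3 comparisons, and that of all tested genes was within 0.01 of 0 in each. The members were chosen with earlier results of these data known, so these counts are a description. Both comparisons against Col-0 use the same 2 Col-0 libraries, while the comparison between the lines uses these only in the shared estimate of the spread.

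Col-0 replicate 2 was above Col-0 replicate 1 for every member. This library also held counts at 77.7% of the 6117 nuclear loci that had none in any mutant library, with a median of 3 and a 95th percentile of 16 counts, against 6.3% of these loci in Col-0 replicate 1. The part such counts have in the Col-0 levels of the members was not tested. MYB75 and TT8 had 13 and 7 counts in Col-0 replicate 1 and 26 and 28 in Col-0 replicate 2. The 8 calls in emb1579-3 held without either of these libraries: DFR was at 2.53 without replicate 1 and at 3.89 without replicate 2, TT8 at 1.41 and 3.11, and MYB75 at 2.22 and 2.94. AT5MAT was at 1.97 and 3.2, GSTF12 at 2.13 and 3.51, and UF3GT at 1.54 and 2.36. For the members, the comparison of the libraries labelled emb1579-1 with Col-0 turned on these 2 libraries. Without Col-0 replicate 1, UGT75C1 was at 0.61, while LDOX at 0.68, MYB75 at 0.91 and TT8 at 0.73 were not called. Without Col-0 replicate 2, DFR was at 1.65, AT5MAT at 1.44 and GSTF12 at 1.63. Each of these fits holds only 1 Col-0 library.

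Mutant libraries also decided some calls. Without emb1579-1 replicate 1, the highest of its group for both, the rise of MYB75 over Col-0 in that line was 0.87 (adjusted p = 0.0911) and that of TT8 was 1.18 (adjusted p = 0.0559). Without emb1579-1 replicate 3, MYB75 was at 1.24 (adjusted p = 0.0501), TT8 at 1.27 (adjusted p = 0.0768) and LDOX at 1.02 (adjusted p = 0.0932), and LDOX was at 1.02 (adjusted p = 0.0533) without emb1579-3 replicate 1. Between the lines, DFR lost its call without emb1579-1 replicate 2 (2.1, adjusted p = 0.0803), emb1579-1 replicate 3 (2.32, adjusted p = 0.0741) or emb1579-3 replicate 3 (2.22, adjusted p = 0.0856). MYB75 lost its call between the lines without emb1579-1 replicate 2 (1.06), emb1579-1 replicate 3 (1.27), emb1579-3 replicate 1 (1.15) or emb1579-3 replicate 3 (1.34), with adjusted p = 0.0807 to 0.116. LDOX, UF3GT, UGT75C1 and AT5MAT kept their calls between the lines without any of the 8 libraries.

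**Figure D3:**
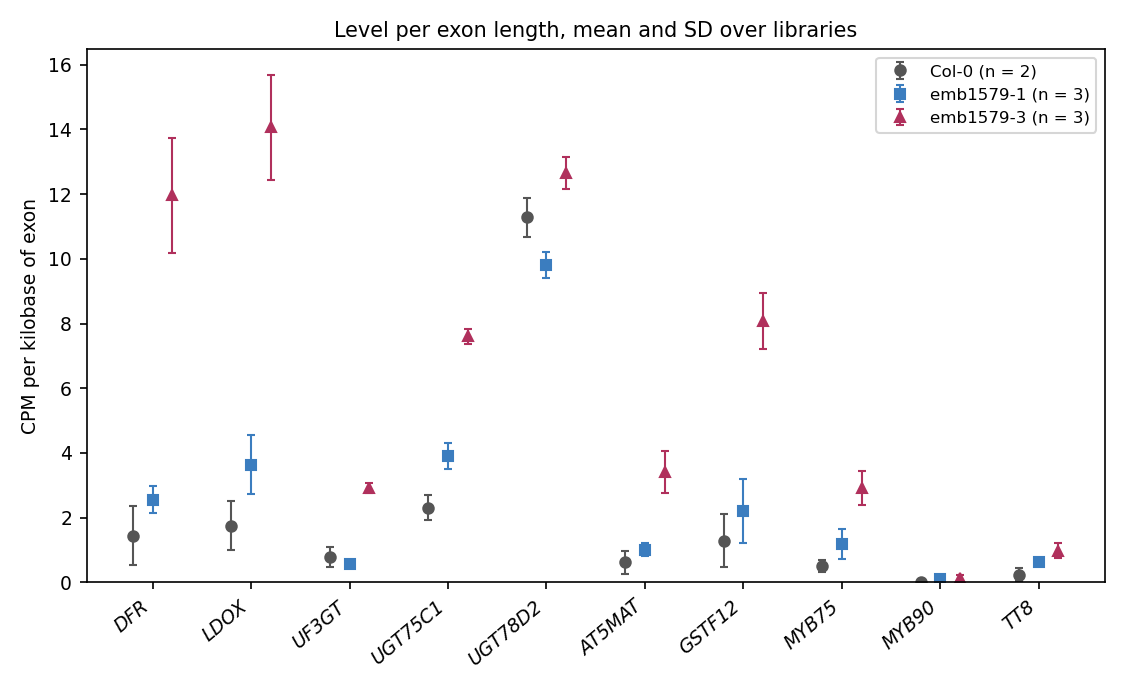
Mean level in CPM per kilobase of exon (y axis, linear) with SD over libraries for each gene in Col-0, emb1579-1 and emb1579-3. UGT78D2 stands alone at 11.3 in Col-0, and in emb1579-3 it is joined by LDOX at 14.1 and DFR at 12.

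Levels of different genes can be set side by side per exon length. In Col-0, UGT78D2 was highest at 11.3 ± 0.6 CPM per kb (SD, n = 2), followed by UGT75C1 at 2.3 ± 0.39, LDOX at 1.75 ± 0.75, DFR at 1.44 ± 0.91 and GSTF12 at 1.28 ± 0.82. Each SD is over libraries that all genes share, and differences between genes were not tested in any group. UF3GT, AT5MAT and MYB75 were at 0.786 ± 0.314, 0.624 ± 0.36 and 0.503 ± 0.179 CPM per kb, and TT8 at 0.243 ± 0.186. For libraries labelled emb1579-1 the order was UGT78D2 at 9.82 ± 0.41, UGT75C1 at 3.9 ± 0.4, LDOX at 3.63 ± 0.91, DFR at 2.56 ± 0.43 and GSTF12 at 2.21 ± 0.99 (SD, n = 3). In emb1579-3 LDOX at 14.1 ± 1.6, UGT78D2 at 12.7 ± 0.5 and DFR at 12 ± 1.8 CPM per kb led. GSTF12 at 8.07 ± 0.87 and UGT75C1 at 7.6 ± 0.24 came next, then AT5MAT at 3.41 ± 0.65, UF3GT at 2.91 ± 0.15 and MYB75 at 2.91 ± 0.52. The bHLH gene TT8 at 0.983 ± 0.239 and MYB90 at 0.139 ± 0.093 CPM per kb closed the order.

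Of 4 other enzyme genes of anthocyanin decoration, 2 were called higher for libraries labelled emb1579-1, where 8.27% of tested genes were, and 3 in emb1579-3, where 9.95% were, with medians of 0.37 and 0.86. The coumaroyl transferase genes 3AT1 and 3AT2, similar copies whose reads may be shared, changed by 0.62 (SE 0.20, adjusted p = 0.0368) and by 0.54 (SE 0.15, adjusted p = 0.014) in the first line and by 0.92 (SE 0.19, adjusted p = 0.00241) and by 0.94 (SE 0.14, adjusted p = 1.39e-04) in the second. The first pair is less certain. Without Col-0 replicate 2, 3AT1 was at 0.8 and 3AT2 at 0.43, and neither passed. 3AT1 also failed without Col-0 replicate 1 (0.47) and without emb1579-1 replicate 1 (0.46) or 2 (0.63). SCPL10, a gene of sinapoyl transfer to anthocyanin, rose by 0.8 (SE 0.19, adjusted p = 0.00806) in emb1579-3, and was at 0.53 and not called without Col-0 replicate 1. Its difference between the lines, 0.78 (SE 0.17, adjusted p = 0.0491), failed without any of the 6 mutant libraries, at 0.64 to 0.9. BGLU10, a gene of glucose transfer onto anthocyanin, was at 0.19 and 0.15 and was not called.

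The partners of MYB75 and TT8 in the MBW complex did not pass the test. TTG1, the WD40 gene, was at -0.1 (SE 0.09, adjusted p = 0.518) and -0.19 (SE 0.09, adjusted p = 0.163). The bHLH genes EGL3 and GL3 were at -0.04 (SE 0.17) and -0.52 (SE 0.32) for libraries labelled emb1579-1 and at 0.38 (SE 0.17) and -0.38 (SE 0.32) in emb1579-3. Of the 4 tested genes of this list, which also holds TTG2, 0 were called by edgeR or DESeq2 in either line. Over all tested genes edgeR called 17.8% and 20.3% in either direction, so 0 of 4 is not read as a result about this list. At an unadjusted p under 0.05 edgeR gave 0 in the first and 2, both higher, in the second. The share of all tested genes under that threshold was not computed, so these counts are not read as a result either.

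Repressors of anthocyanin synthesis lay on the other side. Of 9 tested, 2 fell for libraries labelled emb1579-1, where 9.54% of tested genes were called lower, and 5 fell in emb1579-3, where 10.3% were. All 9 were below 0 in emb1579-3, with a median of -0.43, and 8 of 9 for libraries labelled emb1579-1, with a median of -0.27. LBD39, a gene of a nitrogen-responsive repressor, averaged 15.6 ± 0.4 CPM over the Col-0 libraries (SD, n = 2), 11.4 ± 0.97 for libraries labelled emb1579-1 and 9.11 ± 0.13 in emb1579-3 (n = 3 each). It changed by -0.45 (SE 0.10, adjusted p = 0.00461) and by -0.77 (SE 0.10, adjusted p = 4.11e-05) and kept both calls without any of the 8 libraries. Its relatives LBD37 and LBD38 fell in emb1579-3 by 0.46 (SE 0.09, adjusted p = 0.0018) and by 0.43 (SE 0.13, adjusted p = 0.0216), calls lost without Col-0 replicate 1 (-0.3 and -0.32) and, for LBD38, without emb1579-3 replicate 3 (-0.33). For libraries labelled emb1579-1, LBD37 was at -0.23 (SE 0.09, adjusted p = 0.1), and was called without Col-0 replicate 2 (-0.37) or emb1579-1 replicate 1 (-0.28). MYBL2, a gene of a small MYB protein that blocks the MBW complex, was at 35.9 ± 11.6, 25.2 ± 3.2 and 18.45 ± 1.9 CPM. Its changes were -0.51 (SE 0.19, adjusted p = 0.12) and -0.96 (SE 0.20, adjusted p = 0.0107). The second was not called without emb1579-3 replicate 3 (-0.88), and the first was called without Col-0 replicate 2 (-0.81). MYB7, a repressor gene of flavonoid synthesis, changed by -0.56 (SE 0.16, adjusted p = 0.0205) and by -0.66 (SE 0.16, adjusted p = 0.00684), and neither was called without Col-0 replicate 2 (-0.51 and -0.62). The first was also not called without emb1579-1 replicate 2 (-0.44) or 3 (-0.55). CPC, ETC1, SPL9 and MYB4 did not pass the test in either line.

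**Figure D4:**
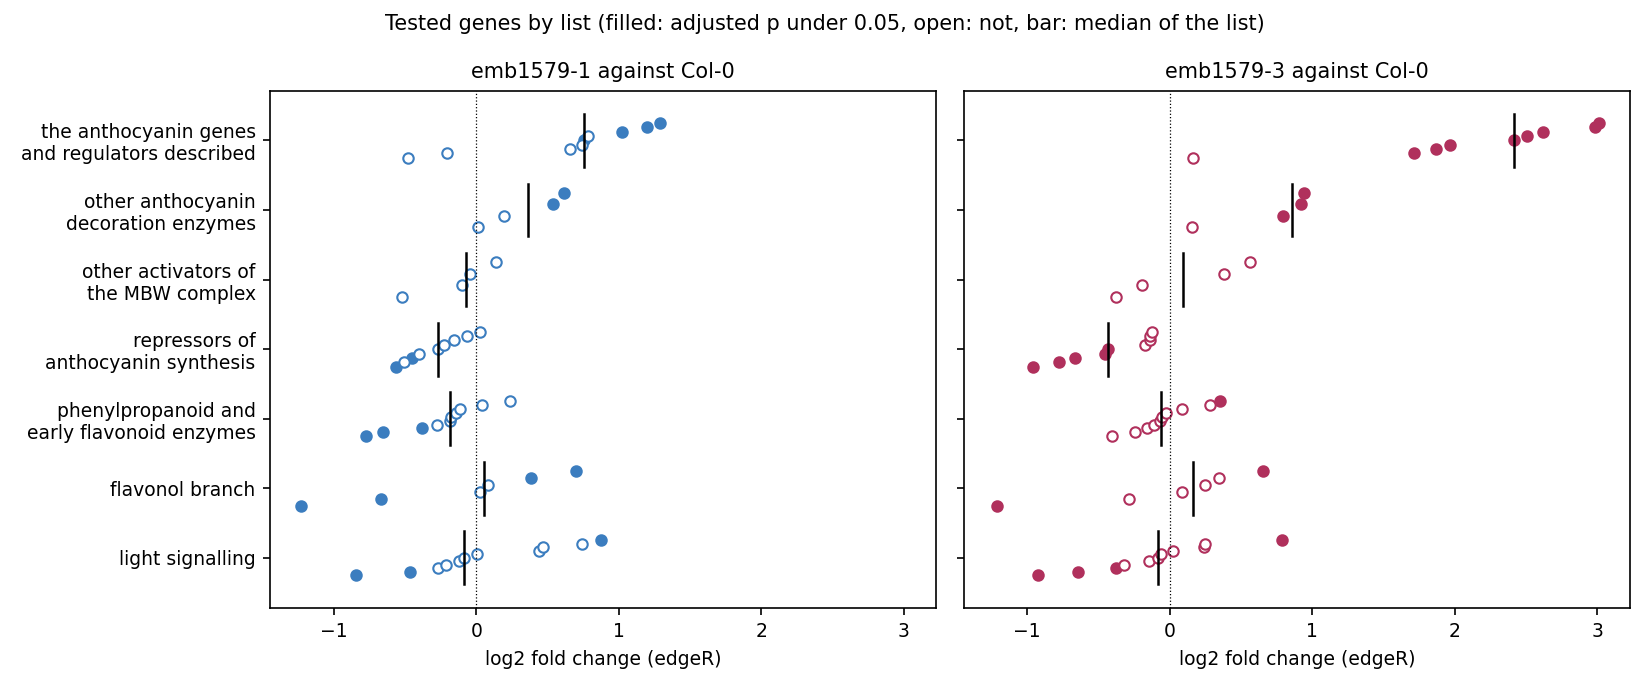
The log2 fold change of every tested gene of 7 lists in each mutant line against Col-0 (x axis), filled where the adjusted p was under 0.05, with a bar at the median of the list. The medians of the anthocyanin genes and regulators are 0.75 and 2.42, those of the repressors -0.27 and -0.43, and those of the early enzymes -0.18 and -0.06.

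Of 10 tested phenylpropanoid and early flavonoid enzyme genes, 3 fell for libraries labelled emb1579-1, where 9.54% of tested genes were called lower. In emb1579-3, 1 rose, which is at the 9.95% of all tested genes. CHS, the gene of chalcone synthase, which opens the flavonoid pathway, was at 72.9 ± 16.6 CPM in Col-0, 42.7 ± 6.8 for libraries labelled emb1579-1 and 61.7 ± 7.6 in emb1579-3. It fell by 0.77 (SE 0.17, adjusted p = 0.0124) in the first line, and its value in the second was -0.24 (SE 0.17, adjusted p = 0.374). CHI, of the next enzyme, and F3′H, which sets the hydroxylation of the ring, changed by -0.38 (SE 0.11, adjusted p = 0.0199) and by -0.66 (SE 0.16, adjusted p = 0.00723) for libraries labelled emb1579-1. Without Col-0 replicate 2 they were at -0.21 and -0.62 and not called, and CHI was also not called without emb1579-1 replicate 2 (-0.37) or 3 (-0.36). CHIL, whose product assists chalcone synthase, rose by 0.35 in emb1579-3 (SE 0.10, adjusted p = 0.021) and differed by 0.54 between the lines (SE 0.09, adjusted p = 0.00632). Without emb1579-3 replicate 1 these were 0.26 and 0.45 and not called, and without Col-0 replicate 1 the first was 0.25 and not called. F3H, the enzyme gene just before DFR, held 2 counts over the 8 libraries and was not tested. It shares 1588 bases with AT3G51238, a noncoding gene on the other strand, which also held 2 counts there, so the level of F3H cannot be read from this table.

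In the flavonol branch, which draws on the same substrate as DFR, 2 of 6 tested genes were called higher and 2 lower for libraries labelled emb1579-1, against 8.27% and 9.54% of tested genes. In emb1579-3, 1 was called higher and 1 lower, against 9.95% and 10.3%. MYB12, the activator gene of flavonol synthesis, was at 6.27 ± 0.28, 2.67 ± 0.59 and 2.71 ± 0.39 CPM and fell by 1.23 (SE 0.18, adjusted p = 1.06e-04) and by 1.21 (SE 0.18, adjusted p = 1.12e-04). FLS1, of flavonol synthase, changed by -0.67 (SE 0.12, adjusted p = 0.00127) for libraries labelled emb1579-1 and had a value of -0.28 (SE 0.12, adjusted p = 0.114) in emb1579-3, where it was called without emb1579-3 replicate 1 (-0.41). UGT78D1, of a flavonol rhamnosyltransferase and close relative of UGT78D2, rose by 0.38 (SE 0.10, adjusted p = 0.0111) and by 0.65 (SE 0.10, adjusted p = 1.42e-04), the first not called without Col-0 replicate 1 (0.25). OMT1, of a methyltransferase, rose by 0.7 (SE 0.12, adjusted p = 0.00126) for libraries labelled emb1579-1 and had a value of 0.35 (SE 0.12, adjusted p = 0.0614) in emb1579-3, where it was called without emb1579-1 replicate 1 (0.35), emb1579-1 replicate 3 (0.35) or emb1579-3 replicate 3 (0.45). Of the 7 genes of the proanthocyanidin branch, the seed coat relative of the pathway that TT8 also serves, only AHA10 passed the filter, and it was not called. The whole list summed to at most 2.87 CPM in any library.

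Of 11 tested light signalling genes upstream of the pathway, 1 was called higher and 2 lower for libraries labelled emb1579-1, against 8.27% and 9.54% of tested genes. In emb1579-3, 1 was higher and 3 were lower, against 9.95% and 10.3%. HY5, a bZIP activator gene of flavonoid genes, was at 9.34 ± 0.19 CPM in Col-0, 5.2 ± 0.13 for libraries labelled emb1579-1 and 5.97 ± 0.27 in emb1579-3. It fell by 0.84 (SE 0.12, adjusted p = 8.85e-05) and by 0.64 (SE 0.12, adjusted p = 8.29e-04). BBX21 and BBX22, of cofactors of HY5, were at -0.47 (SE 0.12, adjusted p = 0.0123) and -0.21 (SE 0.08, adjusted p = 0.0778) in the first and at -0.92 (SE 0.12, adjusted p = 4.47e-05) and -0.38 (SE 0.08, adjusted p = 0.00302) in the second. The first value of BBX21 was not called without Col-0 replicate 1 (-0.39) or emb1579-1 replicate 3 (-0.36), and that of BBX22 was called without emb1579-1 replicate 1 (-0.25). PIF3, of a bHLH factor that acts with light signals and has been tied to anthocyanin, rose by 0.88 (SE 0.13, adjusted p = 1.14e-04) and by 0.79 (SE 0.13, adjusted p = 3.02e-04).

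Among 16358 other tested genes with a mean of at least 2 CPM, 6 were named because their profile over the 8 libraries lay closest to the mean profile of the 9 tested members, each centred on the log2 scale. The root mean square differences were 0.284 for AT1G49570, 0.307 for ARGAH2, 0.317 for AT5G03350, 0.378 for MBP1, 0.382 for CSLA10 and 0.385 for CYP71A13, all in log2 units. Of the members themselves, AT5MAT was nearest to that mean at 0.238, MYB75 at 0.266 and UGT75C1 at 0.286, and UGT78D2 was farthest of those tested at 0.826. Each tested member is part of that mean, which lowers its distance, so these values are not on the same footing as those of the 6 genes. ARGAH2, an arginase gene, was at 15 and 20.9 CPM in Col-0, 52.8, 29.7 and 32.4 for libraries labelled emb1579-1 and 74.5, 68.3 and 71.5 in emb1579-3. CYP71A13, a gene of camalexin synthesis, was at 1.64 and 1.5, at 2.54, 1.36 and 2.06, and at 4.53, 4.57 and 5.01 CPM.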

How the data were processed

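Per the labels' protocols, a column kit and a TruSeq kit turned RNA of whole seedlings into libraries. The authors deposited whole-number counts for 33602 loci in each of 9 libraries. FastQC, HISAT2, Cufflinks, Cuffdiff and the build TAIR10 are named, without versions, in the submitters' processing notes. Which counter, strand setting and rule for shared reads were used was not given in the sources used here, so values of overlapping genes and close copies are uncertain. The series' design text calls the libraries biological replicates, and nothing states that they came from separate plates, so p-values measure the spread between these samples.

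The reported tests are quasi-likelihood F-tests of edgeR 4.0.16 (R 4.3.3) on 8 libraries, with TMM, the default low-count filter, robust dispersions and 1 coefficient per genotype. Col-0 replicate 3 was left out by the rule that chose the members. The filter kept 20668 genes, 9 of the 10 members among them. Benjamini-Hochberg adjustment covered all of them, and the threshold was 0.05. The standard error (SE) is log2 fold change over root F, without sign. The common biological coefficient of variation over all tested genes was 0.0904, and the fit of each gene has 5 residual degrees of freedom. Replicates of a group differed by more than sampling noise (chi-square of at least 5.64 per gene). Alternatives were DESeq2 1.42.0, its size factors, other filters, nuclear genes only, a replicate block, all 9 libraries, fits on 2 groups and leaving out each library. The scripts were tested on simulated counts.

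Coordinates, exon lengths and upstream sequences come from RefSeq TAIR10.1, which matched 32835 loci and left 767. All 10 members were named, and from 7 other lists and the markers each gene called in either line against Col-0, plus GL3, EGL3, TTG1, MYB113, MYB114, MYBL2, CHS, HY5 and the 6 genes of closest profile. Genes such as BGLU10, TTG2, AHA10 and AT4G14100 outside that rule were named after their values were seen. The members and lists were chosen with earlier results of these data known.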

Additional observations from a re-analysis of the deposited data

Results flagged for a closer look

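The change against Col-0 differed between the 2 mutant lines, by the edgeR test of emb1579-3 against emb1579-1, for 7 members. In that test 0.416% of tested genes were called higher. The log2 difference was 2.35 for UF3GT, 2.23 for DFR, 1.96 for LDOX, 1.76 for AT5MAT, 1.31 for MYB75, 0.96 for UGT75C1 and 0.37 for UGT78D2. For all 9 tested members, 3 of 3 emb1579-3 libraries lay above all 3 libraries labelled emb1579-1, as for 7.43% of tested genes. DFR, MYB75 and UGT78D2 lost this call when single mutant libraries were left out.

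Col-0 replicate 3, which no comparison uses, held 191 counts of UGT75C1, or 162 CPM on raw totals, against 3.11 and 4.21 in the other Col-0 libraries and at most 13.3 in any other library. In this library AT4G14100, which overlaps UGT75C1 on the other strand, held 3 counts, and AT3G51238, which overlaps F3H on the other strand, held 727. DFR, LDOX and GSTF12 had 0 counts there, where 3 counts stand for 2.54 CPM.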

How the results depend on the processing

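The 8 members called higher in emb1579-3 against Col-0 were called under every alternative on 8 libraries that tested them. With all 9 libraries, 3 members were called in that comparison, 0 in the libraries labelled emb1579-1 against Col-0 and 0 between the lines, and of all genes 134, 96 and 0 in the same order, against 4193, 3682 and 169 with 8 libraries. UGT75C1 then turned to -4.63 and -3.67 against Col-0 and UGT78D2 to 0.025 in libraries labelled emb1579-1. Leaving out each library moved UF3GT there between -0.803 (without Col-0 replicate 1) and 0.012 (without Col-0 replicate 2). The gene numbers that follow are all genes called. Their share of the genes tested was not computed for the alternatives, and other filters test other numbers of genes. At least 10 CPM in 3 libraries left 4 members tested. Of these, 2, 3 and 4 were called in emb1579-1 against Col-0, emb1579-3 against Col-0 and between the lines. All genes called there were 2156, 2490 and 104. With no filter on low counts, 7 members were among 4295 genes called in the libraries labelled emb1579-1 against Col-0. Between the lines, 8 members were then among 569 genes called. DESeq2 called 365 genes between the lines. In the fit on 2 groups only, 2 members were among 3385 genes called in the libraries labelled emb1579-1 against Col-0. Leaving out each mutant library in turn gave 1 to 4 members called in that comparison, among 2590 to 4325 genes called. It left at least 4 members called between the lines, where 62 (without emb1579-1 replicate 2) to 350 (without emb1579-1 replicate 1) genes were called. Without Col-0 replicate 1, the share of calls against Col-0 that were higher went from 46.4% to 27.9% in the first line and from 49.1% to 29.2% in the second. The causes were not tested.

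With a replicate block, 2 members were called in the libraries labelled emb1579-1, 8 in emb1579-3 and 6 between the lines. All genes called with the block were 3572, 3831 and 250 in the same order. Not called with the block were LDOX (0.96, adjusted p = 0.12), TT8 (1.2, adjusted p = 0.0599), CHS (-0.75) and 3AT1 (0.61) in libraries labelled emb1579-1, and DFR (2.23, adjusted p = 0.112) between the lines. Whether replicate numbers pair the samples was not settled. Deviations from the group means correlated by -0.107 to 0.116 between libraries of the same number. Between the lines these values were 0.116, 0.022 and 0.102 for replicates 1, 2 and 3. They were 0.08 and 0.055 for Col-0 with emb1579-1, and -0.034 and -0.107 for Col-0 with emb1579-3. Libraries of different numbers had -0.134 to 0.107, and not every library correlated best with its own number. Of 417 single-member alternatives, 360 kept direction and side of the threshold, 41 lost a call, 12 gained a call and 4 changed sign. Low counts limit MYB90, MYB75 and TT8.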
